A study of Mus musculus with 9 samples.

Results

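Replication-dependent histone genes encode the bulk histones that package newly copied DNA. The set described here is every gene in the count files whose symbol carries the name of one of the 4 mouse histone clusters (symbols beginning Hist1h, Hist2h, Hist3h or Hist4h) or the newer name of such a gene, with symbols taken from the GENCODE annotation of the mm10 genome. It holds 68 of the 49671 genes in the files. The annotation lists 70 such genes, and Hist1h2bm and Hist1h2bh were not analysed here. By the protein they encode, 6 genes belong to the linker histone class H1, 20 to H2A, 17 to H2B, 12 to H3 and 13 to H4. The Hist1 cluster on chromosome 13 holds 54 of them, Hist2 on chromosome 3 holds 10, Hist3 on chromosome 11 holds 3, and Hist4h4 on chromosome 6 stands alone. The annotation gives 65 as protein-coding and 3 as pseudogenes.

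The study sorted KIT-positive, CD45-negative cells from the dermis of female C57BL/6 mice and compared 3 groups by RNA-seq, each library being a pool of cells from several animals. The melanoblast group (3 libraries) came from wild-type pups at postnatal day 0.5, when melanoblasts, the precursors of the pigment lineage, sit in developing hair follicles. The adult melanocyte stem cell group (adult McSC, 4 libraries) came from wild-type mice aged 8 weeks by the sample labels and 8 to 10 weeks by the design text, and the aged group (aged McSC, 2 libraries) from wild-type mice aged 24 months; in both, the hair was in telogen, the resting phase, when the melanocyte stem cells are quiescent. Pups and adults were C57BL/6J mice bred in house, whereas the aged mice reached the same facility from a separate aged colony at 21 months, so age and colony of origin cannot be told apart. The labels name no transgene and no treatment for any group.

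Most of these genes are transcribed when a cell enters S phase and their transcripts are degraded when DNA synthesis ends. Their mRNAs are unusual in ending, not in a poly(A) tail, but in a short conserved stem-loop that is bound by SLBP, the stem-loop binding protein, which directs processing, translation and decay of the message. Histone variants such as H3.3 and H2A.Z are encoded by genes outside the clusters, carry poly(A) tails and are made throughout the cell cycle. Some cluster genes can also use a downstream poly(A) signal, which gives a longer transcript in cells that have left the cycle.

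The stem-loop is the sequence that sets these mRNAs apart, so it was looked for in every annotated transcript as the letters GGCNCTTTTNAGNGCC on the sense strand. An annotated transcript of 40 of the 68 genes held it (58.8%), against 5 of the 55380 other genes with a transcript (0.00903%), of which the histone variant H2afx was one. In the longest annotated transcript, 19 genes ended within 100 bases of the motif, 20 continued beyond it, and 29 held no motif in it. Several of those 29 transcripts are annotated as very short, such as Hist1h4k (312 bases), Hist1h2bl (381) and Hist1h2ak (393). A missing motif therefore describes the annotated transcript and does not show that the gene lacks a stem-loop. Of the 20 that continued, 11 held the poly(A) signal AATAAA after the stem-loop, and none of the 19 that ended there did. The lines below give the stem-loop (capitals) with 7 flanking bases on each side, from the mm10 transcripts. Hist1h4d, Hist1h1e and Hist1h2bb are shown because they fell after birth, Hist1h1c because its change did not pass the test in adult McSC, and Hist4h4 and Hist3h2a because they rose.
Hist1h4d: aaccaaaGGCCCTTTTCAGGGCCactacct
Hist4h4: ccacaaaGGCCCTTTTCAGGGCCcacaaag
Hist1h1e: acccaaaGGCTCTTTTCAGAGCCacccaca
Hist1h1c: tccaaaaGGCTCTTTTCAGAGCCaccactc
Hist1h2bb: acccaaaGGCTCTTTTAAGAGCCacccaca
Hist3h2a: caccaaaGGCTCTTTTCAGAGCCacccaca
The 9 H4 genes with the motif in that transcript carried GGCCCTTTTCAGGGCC (7 genes) or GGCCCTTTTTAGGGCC (2 genes), and no gene of the other classes did. Hist4h4 and Hist1h4d, which moved in opposite directions, share the same 16 bases, as do Hist3h2a and Hist1h1e. The annotated transcript of Hist4h4 runs 2445 bases past the stem-loop and holds 3 AATAAA signals there, that of Hist3h2a 1643 bases with 1 signal, and that of Hist1h4d 770 bases with none. Other genes that fell have long ends with signals too: Hist1h1d 4884 bases with 7, Hist1h2be 1861 with 2 and Hist2h4 1257 with 2.

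Promoter sequence differed between the classes. The 250 bases before the transcription start of 60 of the 68 genes (61 RefSeq entries, GRCm38.p6) were searched on both strands for the TATA-box letters TATAAA, the CCAAT box, and ATTTGCAT, the octamer bound by POU-family factors, which is known from H2B promoters; none of these words contains another. CCAAT was present in 82% of the entries against 33.8% of all 32851 promoters, TATAAA in 47.5% against 12.4%, and ATTTGCAT in 21.3% against 1.6%. All H1, H2A and H2B entries held a CCAAT box, 80% of H3 entries did, and 25% of H4 entries (3 of 12) did. The octamer was found in H2A (38.9%) and H2B (40%) entries; divergent H2A and H2B neighbours can share 1 promoter, so these entries are not all independent. A gene that fell strongly, Hist1h2bb (chr13:23746484-23746733, plus strand), and the gene that rose most, Hist4h4 (chr6:136804432-136804681, minus strand), are printed with those motifs in capitals, as an example of a promoter with all 3 and of one with none.
Hist1h2bb: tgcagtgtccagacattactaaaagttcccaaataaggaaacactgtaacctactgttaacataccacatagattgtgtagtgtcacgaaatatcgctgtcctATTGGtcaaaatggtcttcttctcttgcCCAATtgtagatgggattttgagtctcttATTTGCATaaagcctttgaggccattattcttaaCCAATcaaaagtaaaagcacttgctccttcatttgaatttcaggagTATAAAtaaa
Hist4h4: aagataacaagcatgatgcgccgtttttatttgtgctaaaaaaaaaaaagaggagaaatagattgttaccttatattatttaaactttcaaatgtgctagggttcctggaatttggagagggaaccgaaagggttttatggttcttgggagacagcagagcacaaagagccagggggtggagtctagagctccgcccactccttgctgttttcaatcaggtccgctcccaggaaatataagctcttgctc
These matches are descriptions of letters in a window. Hist1h4d, which fell, held 1 CCAAT and 1 TATAAA, and Hist3h2a, which rose, held 2 CCAAT and 1 octamer.

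The libraries held 12594770 to 33710117 counts, and levels are given as CPM, counts per 1000000 after scaling by edgeR's trimmed mean of M values (TMM), on which 3 counts correspond to 0.117 to 0.187 CPM. The scaling factors ran from 0.56 to 0.84 in melanoblasts, 1.09 to 1.21 in adult McSC and 1.38 to 1.52 in aged McSC, so the scaling itself moves with the groups. Melanocyte lineage markers were abundant in every library (Dct, a melanin-synthesis enzyme, at 1871 to 11168 CPM), and their 10 genes summed to 14482 to 26271 CPM in melanoblasts, 4480 to 10930 in adult McSC and 7487 to 8998 in aged McSC. Of these 10 genes, 8 fell and none rose in adult McSC (median log2 fold change -1.49). The 10 keratinocyte markers summed to 88.4 to 238 CPM in melanoblasts, 1138 to 2407 in adult McSC and 855 to 1030 in aged McSC, and all 10 rose in adult McSC. Some markers of other cell types also differed between the groups. The 6 immune markers summed to 22.8 to 39.5, 31.1 to 49.8 and 55.4 to 67.8 CPM in melanoblasts, adult and aged McSC, and 1 rose in adult and 3 in aged McSC against melanoblasts. The 6 Schwann cell markers summed to 119 to 202, 423 to 631 and 88.0 to 153 CPM (3 rose in adult McSC, 3 fell in aged against adult McSC), and the 5 endothelial markers to 34.5 to 73.4, 51.9 to 198 and 35.1 to 36.1 CPM (3 rose in adult McSC). The 7 fibroblast markers summed to 545 to 2068, 465 to 932 and 112 to 221 CPM (4 fell and 1 rose in adult McSC, 3 fell in aged against adult McSC), and the 6 mast cell markers to 17.7 to 28.9, 5.08 to 7.72 and 3.99 to 4.81 CPM (2 of 5 tested fell in adult McSC). Olfactory and vomeronasal receptor genes, whose coding sequence mostly lies in 1 exon as in histone genes, served as a background. Whether some of them are expressed in these cells was not tested. The level exceeded by 5% of their 1431 members was 0.276 CPM per kilobase of exon in melanoblasts, 0.575 in adult and 0.731 in aged McSC. Of the 971 tested receptor genes, 270 rose in adult McSC while 1 fell. The part of this background, of RNA from these other cells and of lineage content in the results below was not tested.

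Because many of these genes are near-copies, the transcript of each was cut into windows of 126 bases, the read length, and the share of windows found in no other annotated gene was taken as a measure of how well reads could be assigned. How reads matching several genes were counted is not given in the sources used here. Counts were lower where this share was lower: the 26 genes with under 50% unique windows had a median of 5.5 counts over all 9 libraries together, the 24 genes with 50% to 90% had 103, and the 18 genes with at least 90% had 217. The 5 genes with no unique window (Hist2h2aa1, Hist2h2aa2, Hist2h3b, Hist2h3c1 and Hist2h2bb) were all at 0, as were 2 others. The H2A class had the lowest median count of the classes, 5, and 4 of its 20 members passed the count filter. In that class 19 of the 20 members overlap a predicted miRNA gene that is itself at 0 counts in every library. Levels of H2A and H3 genes in particular are best read as levels of the assignable part, and low counts of a near-copy say nothing of its transcription. Whether shared sequence or these overlaps lowered the counts was not tested.

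**Figure D1:**
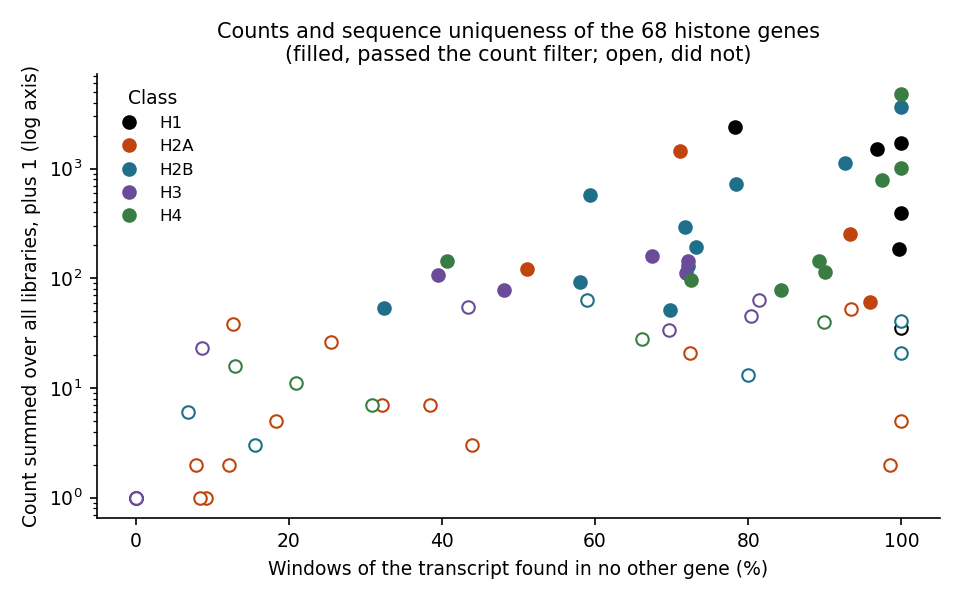
Count of each of the 68 histone genes summed over the 9 libraries, plus 1 (log axis), against the percentage of its 126-base windows found in no other annotated gene; colour gives the histone class, and filled points passed the count filter. Genes without unique windows lie at 0 counts, and filled points become more frequent to the right (4 of 26 genes under 50%, 12 of 18 at 90% or more).

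The filter on low counts passed 32 of the 68 genes: 5 H1, 4 H2A, 10 H2B, 5 H3 and 8 H4. A gene that is high in melanoblasts alone passes it and one that is low everywhere does not, so the counts below describe the tested genes only. The 36 genes left out reached at most 32 counts in any library and a group mean of at most 0.677 CPM, and together they summed to 4.47 to 7.78 CPM in melanoblasts, 1.54 to 2.57 in adult McSC and 1.82 to 2.72 in aged McSC. Of these 36, 22 had a lower mean in adult McSC than in melanoblasts, 6 a higher one, and 7 were at 0 throughout.

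The first comparison, adult McSC against melanoblasts, sets resting stem cells against the dividing precursors of newborn skin. Replication-dependent histone transcripts were lower in every adult library: the 68 genes summed to 349, 283 and 176 CPM in the 3 melanoblast libraries, to 54.6, 60.9, 70.8 and 61.0 in adult McSC and to 54.1 and 85.2 in aged McSC. The means were 269 ± 87.4 (SD, n = 3), 61.8 ± 6.70 (SD, n = 4) and 69.6 ± 22.0 (SD, n = 2), a 4.36-fold lower sum in adult McSC. As CPM of the unscaled library total the sum was 2.36-fold lower, and with factors from abundant genes alone 2.40-fold lower. In pooled cells, fewer cells containing these mRNAs and less of it per cell cannot be told apart.

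Of the 32 tested genes, 20 fell in adult McSC (62.5%) and 2 rose (6.25%), by edgeR's quasi-likelihood test at an adjusted p under 0.05. Over all 31961 genes tested, 18.3% fell and 15.1% rose, 33.4% in either direction. The median log2 fold change was -2.18 for the histone genes and 0.39 for all genes. Factors from abundant genes alone moved the median of all genes to 1.15 and that of the histone genes to -1.31, with 14 falling and 3 rising, and moved the share of rising genes among all calls from 45.3% to 84.0%; relative to the median of all genes the histone median was -2.57 with the first scaling and -2.46 with the second. In 19 of the 32 genes every adult library lay below every melanoblast library, a pattern that 19.8% of all tested genes showed. For 9 of the 20 genes that fell, the adult level per kilobase was at or below that exceeded by 5% of the receptor genes (0.575 CPM per kilobase), so their residual level in adult McSC was not distinguishable from that background.

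**Figure D2:**
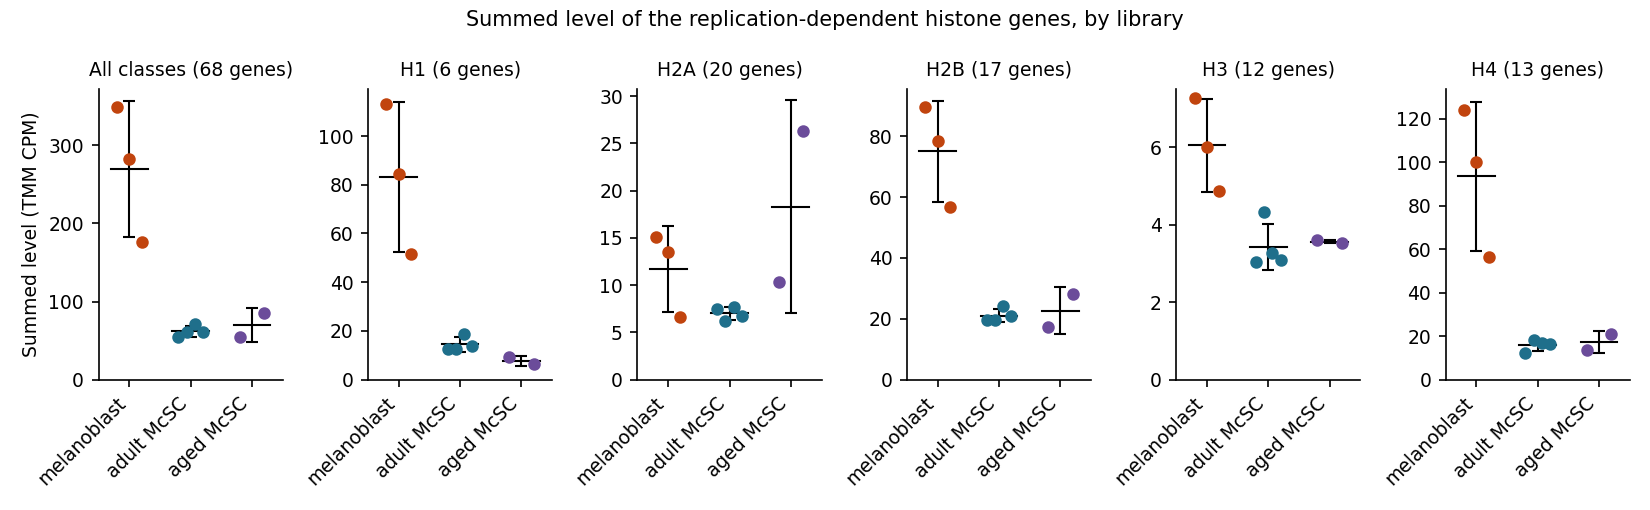
Summed TMM-scaled CPM of all 68 histone genes and of each class in the 9 libraries (points); horizontal lines are group means and bars 1 SD (3 melanoblast, 4 adult McSC and 2 aged McSC libraries). Sums of H1, H2B and H4 genes are separated between melanoblasts and both stem cell groups, whereas the H2A sum is highest in 1 aged library (26.3 CPM).

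Linker histones bind the DNA between nucleosomes, and 4 of the 5 tested H1 genes fell. Hist1h1b, which encodes H1.5, had the largest fall of the 32 genes in adult McSC: 36.8, 30.5 and 20.2 CPM in melanoblasts against 0.55, 1.11, 1.44 and 1.37 in adult McSC and 0.81 and 0.52 in aged McSC. The groups were far apart, and the log2 fold change in adult McSC was -4.70 (SE 0.34, adjusted p = 1.57e-10), a 26.0-fold lower level. Hist1h1e, encoding H1.4, was at 46.5, 32.7 and 20.5 CPM in melanoblasts, 2.53, 6.03, 6.64 and 5.58 in adult and 2.95 and 0.98 in aged McSC, and fell by 2.68 on the log2 scale in adult McSC (SE 0.35, adjusted p = 3.68e-06). Its exons overlap those of Hist1h2be and of Gm11398 on the same strand (816 bases, summed over those 2 genes), so some reads of these genes cannot be told apart. Hist1h1a (H1.1) fell by 3.03 (SE 0.54, adjusted p = 1.33e-04), from 8.40, 6.52 and 2.41 CPM to 0.55, 1.11, 0.62 and 0.54. Hist1h1c, encoding H1.2, did not pass: its 16.7, 11.5 and 7.33 CPM in melanoblasts overlapped the 8.42, 3.81, 9.66 and 5.99 in adult McSC (log2 fold change -0.76, SE 0.33, adjusted p = 0.076). It passed without melanoblast library 3 (-1.01, adjusted p = 0.0129), and its value changed sign with abundant-gene factors (0.11, adjusted p = 0.819). The difference between Hist1h1c and the other H1 genes was not tested.

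H2A and H2B form the dimers at the flanks of the nucleosome. In the H2A class, Hist1h2ak was at 6.54, 3.91 and 1.86 CPM in melanoblasts and 0.12, 0.30, 0.37 and 0.38 in adult McSC (log2 fold change -3.79, SE 0.61, adjusted p = 3.68e-05). Hist1h2ab and Hist2h2ac, both at 0.40 to 2.40 CPM in melanoblasts and at most 0.21 CPM in adult McSC, close to the level of 3 counts, fell by 3.46 and 3.53. The fourth tested H2A gene, Hist3h2a, rose and is described with Hist4h4.

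In the H2B class 9 of the 10 tested genes fell. Hist1h2bb went from 5.54, 6.25 and 2.81 CPM to 0.08, 0.38, 0.49 and 0.12 (log2 fold change -4.15, SE 0.62, adjusted p = 1.49e-05), and Hist1h2bl from 10.6, 10.4 and 5.97 CPM to 0.27, 0.81, 0.95 and 0.58 (-3.78, SE 0.46, adjusted p = 8.36e-07). Hist1h2bf (-4.12), Hist1h2bk (-3.63), Hist1h2bg (-3.29) and Hist1h2bj (-2.53) fell from 0.60 to 3.56 CPM and were at most at 0.50 CPM in any adult library. Hist2h2be, the most abundant H2B gene, fell less: 43.2, 34.5 and 26.5 CPM against 9.43, 11.7, 13.3 and 14.3, or -1.51 on the log2 scale (SE 0.26, adjusted p = 8.50e-05). Hist1h2bc (-1.39, SE 0.37, adjusted p = 0.00531) and Hist1h2be (-1.38, SE 0.35, adjusted p = 0.00346) had falls near that of Hist2h2be. Those last 2 calls were lost with abundant-gene factors, at -0.57 (adjusted p = 0.249) and -0.54 (adjusted p = 0.283), and the call of Hist1h2be also with a stricter filter on low counts.

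None of the 5 tested H3 genes passed the threshold, and all were low. The highest in melanoblasts, Hist1h3e, was at 2.24, 1.82 and 1.00 CPM in melanoblasts and 0.39, 1.16, 0.29 and 0.42 in adult McSC (log2 fold change -1.58, SE 0.66, adjusted p = 0.068). It passed by DESeq2 and by limma voom, and without melanoblast library 3 or adult library 2, its highest adult value. Hist1h3a (-0.57, SE 0.66) and Hist1h3b (-0.55, SE 0.87) overlapped between the groups, and Hist1h3f (0.76, SE 0.76) and Hist2h3c2 (1.65, SE 0.88) had higher means in adult McSC. The summed H3 level was 6.05 ± 1.21 CPM (SD, n = 3) in melanoblasts and 3.42 ± 0.60 (SD, n = 4) in adult McSC. This difference was seen with TMM alone of the 3 scalings: the means were 3.86 and 3.93 CPM on library totals and 3.88 in both groups with abundant-gene factors.

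H4 pairs with H3 at the core of the nucleosome. Hist1h4d was the most abundant histone gene of melanoblasts, at 103, 82.8 and 43.8 CPM, 67.3 CPM per kilobase and 28.4% of the summed level. It was at 2.45, 7.23, 7.26 and 6.54 CPM in adult McSC and 4.29 and 1.2 in aged McSC, with no overlap between melanoblasts and the other groups (log2 fold change in adult McSC -3.71, SE 0.40, adjusted p = 1.13e-06, 13.0-fold lower). Hist2h4 fell less, from 12.8, 10.5 and 8.83 CPM to 1.71, 6.12, 3.26 and 3.16 (-1.59, SE 0.37, adjusted p = 0.00172; -0.86, adjusted p = 0.0761 with abundant-gene factors). Hist1h4i (-3.10) and Hist1h4c (-1.92) fell from lower levels. Hist1h4k stayed between 0.40 and 1.15 CPM in all 9 libraries (-0.13, SE 0.69, adjusted p = 0.895).

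Hist4h4 and Hist3h2a rose. Hist4h4, the lone H4 gene of chromosome 6 (136801553 to 136804415), was at 0.44, 0.52 and 0.55 CPM in melanoblasts, 5.77, 3.08, 3.92 and 3.16 in adult McSC and 4.25 and 15.1 in aged McSC. Every stem cell library lay above every melanoblast library (for adult McSC, as in 19.5% of all tested genes), and the adult log2 fold change was 2.97 (SE 0.50, adjusted p = 6.31e-05), a 7.81-fold higher level. In melanoblasts its level per kilobase (0.176 CPM per kilobase) lay under that exceeded by 5% of receptor genes, and in adult McSC (1.39 CPM per kilobase) above it. Hist3h2a, an H2A gene of chromosome 11 (58954685 to 58956830), was at 3.17, 3.65 and 2.16 CPM in melanoblasts, 6.70, 5.52, 6.60 and 5.70 in adult McSC and 9.58 and 25.2 in aged McSC. Its adult log2 fold change was 1.03 (SE 0.34, adjusted p = 0.0221), and the call was lost without melanoblast library 3 (0.84, adjusted p = 0.0535) or adult library 3 (1.0, adjusted p = 0.0507). Its level per kilobase was 1.39 CPM in melanoblasts and 2.86 in adult McSC, above the receptor level in both (0.276 and 0.575). The median log2 fold change of the 971 tested receptor genes in adult McSC was 1.71, above that of Hist3h2a and below that of Hist4h4. The part of this background in the 2 rises was not tested. The exons of Hist3h2a overlap Trim17 on the same strand, and the share of its reads that belong to Trim17 cannot be told apart in these counts.

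**Figure D3:**
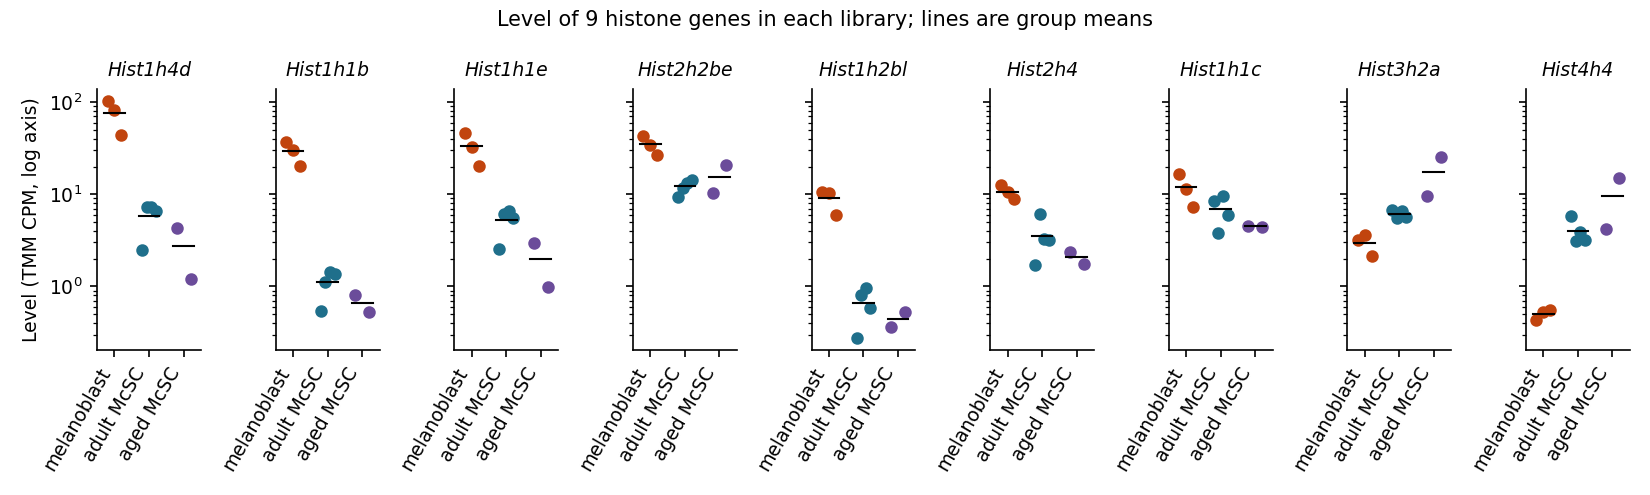
TMM-scaled CPM of 9 histone genes in each library (points, log axis), with group means as lines. Hist1h4d, Hist1h1b, Hist1h1e and Hist1h2bl are separated downwards from melanoblasts, Hist1h1c overlaps between melanoblasts and adult McSC, and Hist3h2a and Hist4h4 lie higher in all stem cell libraries, highest in aged library 2 (25.2 and 15.1 CPM).

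The make-up of the assigned histone counts differed accordingly. These shares depend on unique windows and transcript length, so they are not shares of the mRNA itself. In melanoblasts Hist1h4d (28.4% of the sum), Hist2h2be (12.9%), Hist1h1e (12.3%) and Hist1h1b (10.8%) led. In adult McSC Hist2h2be (19.7%), Hist1h1c (11.3%), Hist3h2a (9.92%) and Hist1h4d (9.5%) led, and in aged McSC Hist3h2a (25.0%), Hist2h2be (22.3%) and Hist4h4 (13.9%). The aged order rests on aged library 2: in aged library 1 Hist2h2be (10.4 CPM) exceeded Hist3h2a (9.58 CPM), and Hist4h4 (4.25 CPM) lay below Hist1h1c (4.49 CPM) and Hist1h4d (4.29 CPM). Per kilobase, Hist1h4d (67.3 CPM), Hist1h1b (39.3 CPM) and Hist1h2bl (23.7 CPM) ranked highest in melanoblasts, and Hist3h2a (8.11 CPM) and Hist2h2be (5.92 CPM) in aged McSC. The Hist1 cluster summed to 219 ± 76.0 CPM (SD, n = 3) in melanoblasts, 35.2 ± 5.48 (SD, n = 4) in adult McSC and 23.6 ± 3.81 (SD, n = 2) in aged McSC, whereas the 3 genes of Hist3 summed to 3.69 ± 1.54, 6.29 ± 0.63 and 17.5 ± 11.1 CPM. Most of the Hist3 sum was Hist3h2a (means 2.99, 6.13 and 17.4 CPM), the only Hist3 gene tested. Hist3h2ba, which was not tested, had means of 0.57, 0.07 and 0 CPM. Its melanoblast mean rests on melanoblast library 2 (1.67 CPM, against 0 in library 1 and 0.05 in library 3), so no direction is read from it. Grouped by transcript end, 6 of the 8 tested genes that end at the stem-loop fell in adult McSC and none rose (median log2 fold change -3.49). Of the 14 tested genes whose transcript continues past it 8 fell and 2 rose (median -1.58). Among the 10 tested genes without a stem-loop in the annotated transcript 6 fell and none rose (median -1.97). Over all tested genes 18.3% fell and 15.1% rose. The first 2 groups also differ in level and in unique windows, and differences between the groups were not tested.

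The comparison of aged McSC with melanoblasts shares its melanoblast libraries with the one above. Of the 32 genes, 21 fell (65.6%) and 3 rose (9.38%), against 20.3% and 20.4% of all genes tested by edgeR (40.7% in either direction), and the median was -2.51 against 0.70 for all genes. With abundant-gene factors the medians were -1.33 and 1.78, with 11 falling and 3 rising, and the share of rising genes among all calls went from 50.1% to 89.7%. With TMM, 12 of the 21 genes that fell had an aged level at or below that exceeded by 5% of receptor genes (0.731 CPM per kilobase). Of the 3 genes that rose, 2 had a melanoblast level at or below the receptor level of that group (0.276 CPM per kilobase). With only 1 of the 2 aged libraries, 12 (without aged library 1) or 13 (without aged library 2) fell and 2 rose. Hist1h1b fell by 5.42 (SE 0.48, adjusted p = 1.51e-08), Hist1h4d fell by 4.76 (SE 0.57, adjusted p = 5.93e-06), and Hist1h1e fell by 4.04 (SE 0.50, adjusted p = 2.83e-06). Hist1h1c, at 4.49 and 4.46 CPM in aged McSC, fell by 1.40 (SE 0.42, adjusted p = 0.0111), a call lost in 5 of 18 alternatives, leaving out either aged library among them. Hist4h4 rose by 4.24 (SE 0.55, adjusted p = 3.55e-06) and Hist3h2a by 2.54 (SE 0.39, adjusted p = 2.79e-05), and both calls held in all 18 alternatives. Both aged libraries lay above every melanoblast library for these 2 genes, as they did for 40.4% of all tested genes, and below for 25.7%. Hist2h3c2, an H3 gene with 39.6% unique windows, was at 0.25, 0.16 and 0.10 CPM in melanoblasts and 0.97 and 1.33 in aged McSC and rose by 2.75 (SE 0.98, adjusted p = 0.0284), a call lost without either aged library.

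**Figure D4:**
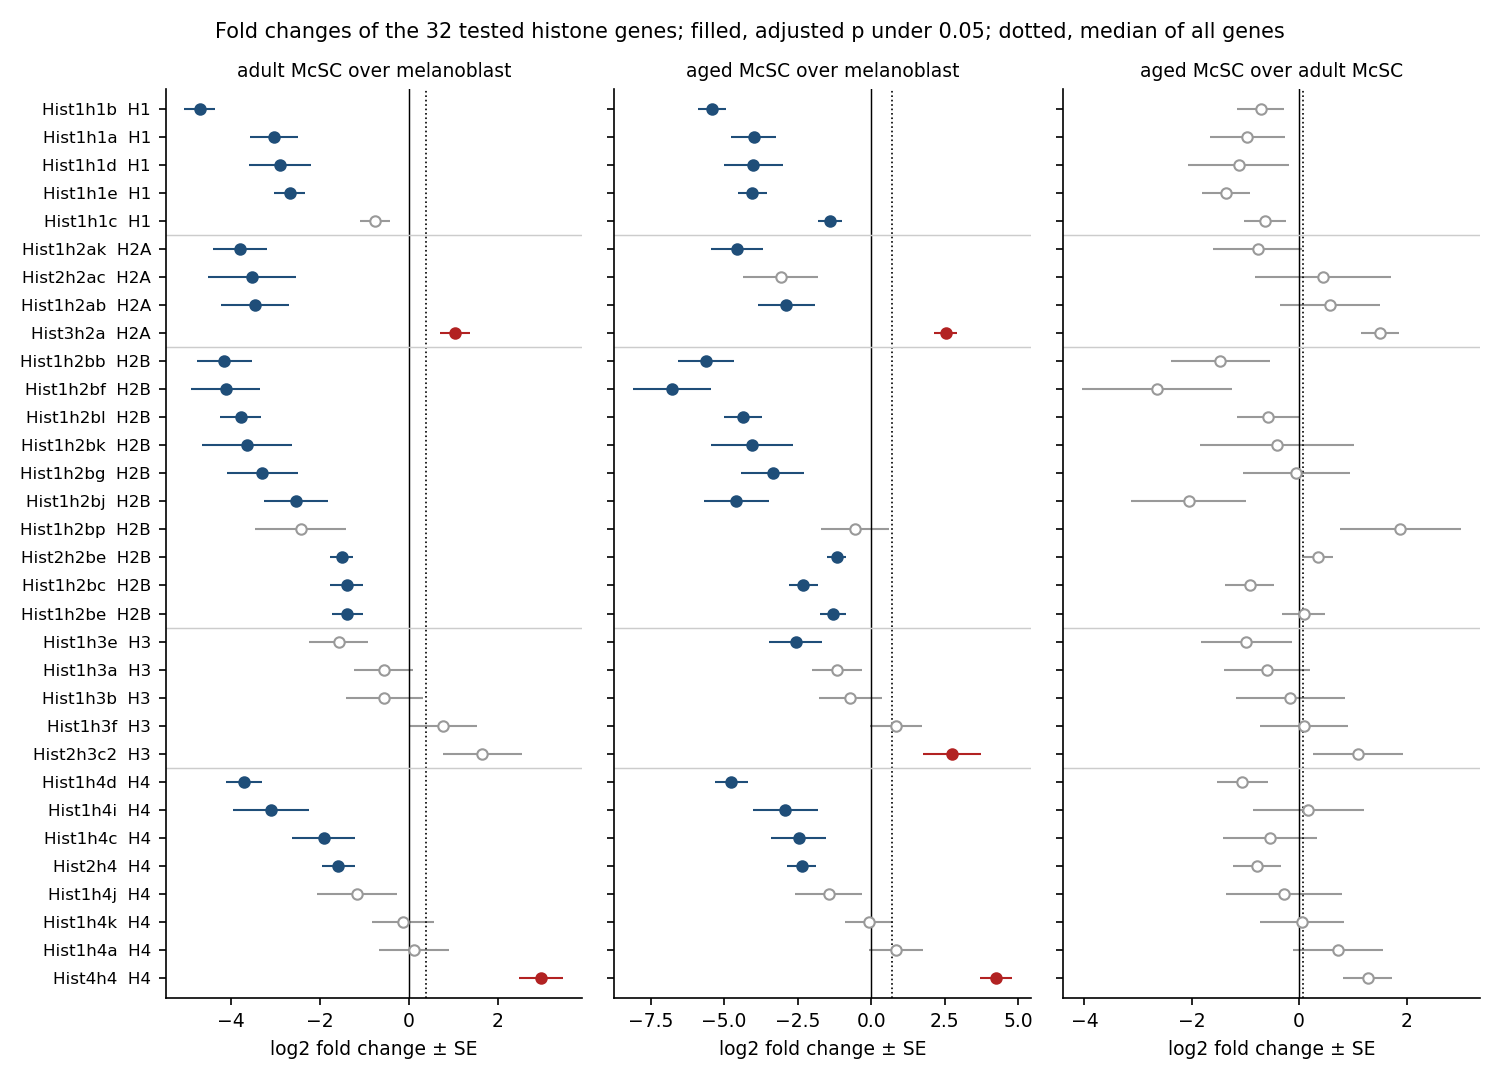
Log2 fold change ± SE of the 32 tested histone genes in the 3 comparisons, grouped by class; filled points have an adjusted p under 0.05 (blue lower, red higher), the solid line marks 0 and the dotted line the median of all genes. Most H1, H2A, H2B and H4 genes lie left of 0 in both comparisons with melanoblasts, with Hist3h2a and Hist4h4 to the right, and no point is filled in aged over adult McSC.

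Between aged and adult McSC, which asks what changes in the stem cells with age, no histone gene passed the threshold. By edgeR 0 of 32 were called, where over all genes 0.25% fell and 0.0532% rose. DESeq2 called 1 (Hist3h2a, rising), where 49 of all 31961 genes rose and 290 fell. An unadjusted p under 0.05 by edgeR was reached by 4 of 32, against 10.2% of all genes. The 2 largest of those 4 in the upward direction were Hist3h2a, whose value was 1.5 on the log2 scale (SE 0.35, adjusted p = 0.0711 by edgeR and 0.024 by DESeq2), and Hist4h4, 1.27 (SE 0.45, adjusted p = 0.332). Hist3h2a passed in 7 of 18 alternatives. Both genes were highest in aged library 2: Hist3h2a was at 9.58 CPM in aged library 1 and 25.2 in library 2 against 5.52 to 6.70 in adult McSC, and its fold change was 0.68 (adjusted p = 0.956) without aged library 2. Hist1h1e (-1.36, SE 0.44, adjusted p = 0.289) and Hist1h4d (-1.06, SE 0.48, adjusted p = 0.473) had lower means in aged McSC and overlapped the adult range; Hist1h1e passed without a filter on low counts (-1.39, adjusted p = 0.0264). Without Hist4h4 and Hist3h2a the histone genes summed to 266 ± 86.8 CPM (SD, n = 3) in melanoblasts, 51.7 ± 7.44 (SD, n = 4) in adult McSC and 42.5 ± 3.27 (SD, n = 2) in aged McSC.

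Histone variants, which are made outside S phase as well, were read beside the cluster genes. In adult McSC 8 of the 10 tested variant genes fell and none rose (median -1.58). H2afz, encoding H2A.Z, went from 785, 696 and 437 CPM to 134, 187, 125 and 136 (-2.13, SE 0.25, adjusted p = 6.01e-07), and Cenpa, the centromeric H3, from 129, 116 and 117 CPM to 25.3, 25.8, 16.7 and 21.0 (-2.44, SE 0.22, adjusted p = 9.10e-09). H1f0, the linker histone known for accumulating in non-dividing cells, was also lower, at 224, 186 and 106 CPM against 33, 52.9, 53.2 and 58.4 (-1.80, SE 0.25, adjusted p = 7.27e-06). H2afx, H3f3a, H2afv, H2afy and H2afj fell by 1.91, 1.70, 1.46, 1.37 and 1.07. The 2 variants that did not pass were H3f3b, the more abundant H3.3 gene, at 360 to 751 CPM in melanoblasts and 292 to 488 in adult McSC (-0.53, SE 0.30, adjusted p = 0.167), and H2afy2 (-0.30, SE 0.45, adjusted p = 0.627); the value for H3f3b was 0.31 with abundant-gene factors. With those factors 7 variants fell and none rose, where 1985 of all 31961 genes fell and 10416 rose. The summed level of the 11 variants exceeded that of the cluster genes in every library (564 to 2197 CPM against 54.1 to 349). The cluster sum is of the assignable part only, and neither sum was corrected for transcript length. The 2 sums therefore do not rank the amounts of mRNA.

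The machinery that handles histone mRNA was examined through 26 genes for its transcription, 3′ end processing and decay (Upf1 and Eri1 among the last). In adult McSC 19 fell and 1 rose (median -1.0), but these counts depended on the scaling. With abundant-gene factors 4 fell and 5 rose, where 1985 of all 31961 genes fell and 10416 rose. Npat, the coactivator of histone genes in S phase, was at 109, 107 and 96.7 CPM in melanoblasts and 46.7, 59.2, 48.7 and 47.5 in adult McSC (-1.04, SE 0.20, adjusted p = 3.10e-04), a call lost with abundant-gene factors. Cdk2, the kinase that activates NPAT, fell by 1.59, Cpsf2, a subunit of the cleavage complex, by 1.57, and Casp8ap2, a component of the histone locus body, by 1.19. Slbp, whose product binds the stem-loop, did not pass the test: 56.6, 62.8 and 50 CPM in melanoblasts, 54.8, 69.2, 41.6 and 43.2 in adult and 59.8 and 91.8 in aged McSC (adult -0.11, SE 0.23, adjusted p = 0.723), and it rose with abundant-gene factors (0.66). Zfp473, a zinc-finger protein of histone pre-mRNA processing, rose by 1.27 (SE 0.31, adjusted p = 0.00256), from 2.71 to 3.75 CPM to 7.14 to 8.77.

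Histone chaperones, which carry new histones to DNA, fell in 22 of 26 cases and rose in none (median -1.22). With abundant-gene factors 14 fell, where 1985 of all 31961 genes fell and 10416 rose. The most changed included 2 subunits of chromatin assembly factor 1: Chaf1b was at 34.1, 25.7 and 24.1 CPM in melanoblasts and 5.65, 4.66, 4.17 and 4.25 in adult McSC (-2.58, SE 0.27, adjusted p = 1.07e-07), and Chaf1a fell by 1.98. Asf1b, which hands H3 and H4 to that complex, fell by 2.27, Mms22l, of a replication-fork complex, by 2.28, and Supt16, of the FACT complex, by 1.71. Of 18 tested S phase genes 15 fell and none rose (median -1.34); with abundant-gene factors 11 fell and 2 rose. Rrm1, of the enzyme that makes deoxyribonucleotides, fell by 1.95, while Pcna, the sliding clamp of DNA polymerase, was at 103 to 162 CPM in melanoblasts and 86.2 to 131 in adult McSC (-0.34, SE 0.26, adjusted p = 0.322; 0.48 with abundant-gene factors). Slbp belongs to this list too. Between aged and adult McSC no gene of the variant, processing, chaperone or S phase lists was called by edgeR; 3 of 10, 6 of 26, 2 of 26 and 2 of 18 had an unadjusted p under 0.05, where 10.2% of all genes did, and DESeq2 called 0 in each.

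**Figure D5:**
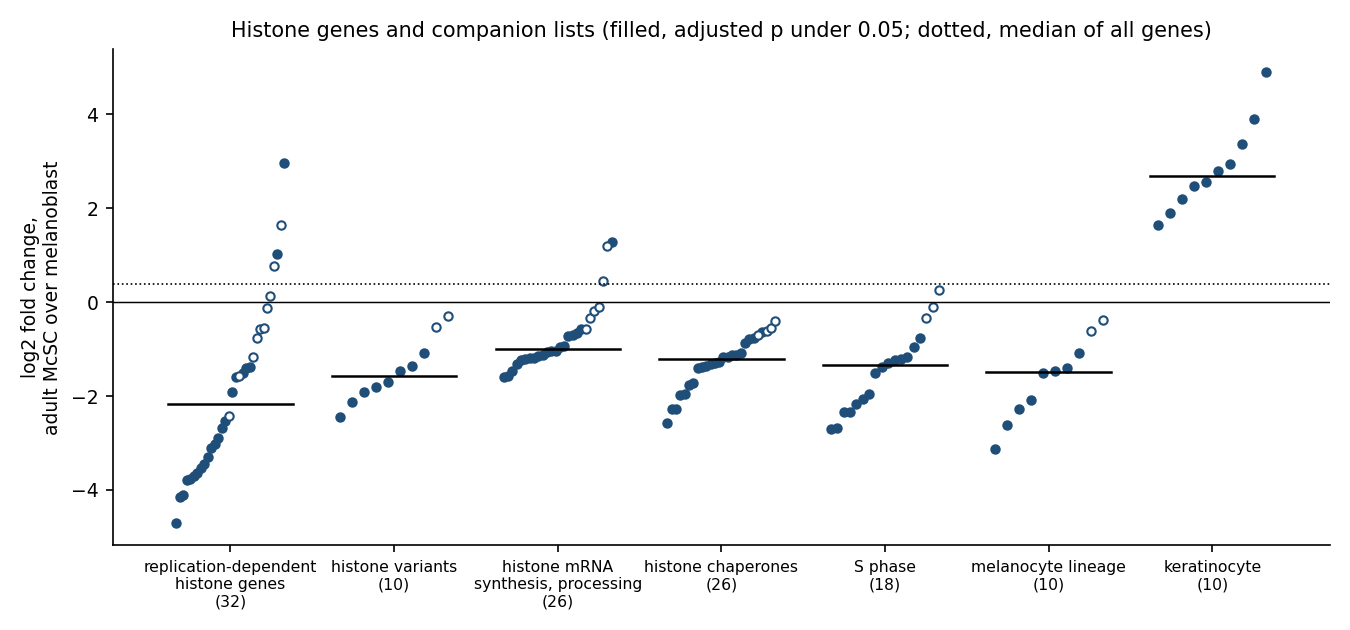
Log2 fold change in adult McSC over melanoblast of each tested gene of the cluster histones and of 6 lists, sorted within each list; filled points have an adjusted p under 0.05, bars are list medians and the dotted line the median of all genes (0.39). The cluster histones reach lowest (-4.70) and have the lowest median (-2.18), and all 10 keratinocyte markers lie above 0.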

How the data were processed

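Total RNA (20 ng) from sorted, pooled cells was converted to amplified cDNA (kit: Ovation RNA-Seq System V2), fragmented, made into libraries with a TruSeq RNA kit and sequenced as 126-base read pairs, per the labels' protocols. No protocol names a poly(A) selection or a marking of strand. The authors deposited 1 table of raw gene counts per library, by Ensembl gene identifier; the submitters' processing notes name Trimmomatic 0.36, STAR 2.5.2, SAMtools 1.9, DESeq2 1.22.2 and the mm10 build. The counting program was not given in the sources used here, nor its use of strand or its handling of reads matching several genes. Symbols came from the GENCODE annotation (49412 of 49671 identifiers matched).

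Here the deposited counts of all 9 libraries were fitted with edgeR 4.0.16 (R 4.3.3; TMM factors, default expression filter, robust quasi-likelihood test on a group-means model, Benjamini-Hochberg adjustment over 31961 genes, threshold 0.05), after the procedure was tested on simulated data. SE is the log2 fold change divided by the root of the test's F value. DESeq2 1.42.0, limma 3.58.1, other scalings and filters, a replicate block and leaving out each library were alternatives. Abundant-gene factors are TMM factors from genes above log2 CPM 5; the stricter filter asks for 5 CPM in 2 libraries. Replicate libraries differed by more than sampling noise, and replicate numbers did not pair them.

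Genes named are, per class, the 4 protein-coding genes of highest level and those with the extreme fold changes in adult McSC, those called against the main direction, all tested variants, up to 8 processing and chaperone genes each by p, and the most abundant genes of the S phase and marker lists; Slbp, Npat, Zfp473 and cluster genes outside that rule were named after their values were seen. The gene set and all lists were chosen with earlier results of these data known. Sequences are from mm10 transcripts and RefSeq (GRCm38.p6).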

Additional observations from a re-analysis of the deposited data

Results flagged for a closer look

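In the 4 adult McSC libraries, 3 genes had 1 library far from the others by Dixon's criterion (the gap to the nearest library over the whole range), among 27 genes and sums examined; chance flags about 1 in 20 such groups. Hist1h1a (ratio 0.864) and Hist1h3e (ratio 0.853) were high in adult library 2, at 1.11 and 1.16 CPM, where the other adult libraries were at 0.54 to 0.62 and 0.29 to 0.42 CPM. Hist1h4d (ratio 0.849) was low in adult library 1, at 2.45 CPM against 6.54 to 7.26. Hist1h1e, which is not among the 3, was also lowest there, at 2.53 against 5.58 to 6.64 CPM. The fall of Hist1h4d and Hist1h1a against melanoblasts held without any 1 library.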

How the results depend on the processing

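Of 46 fold changes of named cluster genes, 26 kept direction and call under every alternative and 20 did not. Leaving out each library in turn gave 17 to 22 falling and 1 to 2 rising genes of the cluster histones (19 to 23 changed, median -2.49 to -1.44) in adult McSC, 12 to 21 falling and 2 to 3 rising (14 to 24 changed, median -2.83 to -2.09) in aged McSC against melanoblasts, and 0 falling and 0 to 1 rising between aged and adult McSC, where the sole call was Hist3h2a. The rise of Hist3h2a in adult McSC is the one missed without melanoblast library 3 or adult library 3. A stricter filter tested 10 cluster genes, with 6 falling, 8 changed and a median of -1.08 in adult McSC, and 5 falling, 7 changed and -1.17 in aged McSC. Abundant-gene factors gave medians of -1.31 and -1.33, with 11 falling and 14 changed in aged McSC, and turned the uncalled values of Hist1h1c (0.11), Hist1h3a (0.20) and Hist1h4k (0.72; 1.10 in aged McSC) positive. The adult median was -1.80 by limma voom, -1.45 without a filter (-1.82 in aged McSC) and -1.76 without mitochondrial rRNA, an alternative chosen after seeing the data. Hist1h4k, near 0 throughout, also changed sign without mitochondrial rRNA (0.0024; 0.058 in aged McSC), and in aged McSC by limma voom (0.0040), without a filter (0.029) and from the compared groups only (0.052), and ranged from -0.44 to 0.29 and from -0.67 to 0.46 over left-out libraries. Between aged and adult McSC, DESeq2, the stricter filter and the compared groups only each gave 1 rising gene and 1 changed, and no filter 1 rising (Hist3h2a) and 1 falling (Hist1h1e; 2 changed). The log2 ratio of the summed level was -1.24 on library totals and -1.26 with abundant-gene factors in adult McSC (-2.12 by TMM), and -0.76 and -0.74 in aged McSC (-1.95 by TMM). The cause of these shifts was not tested. Same-numbered libraries did not deviate together (correlations -0.08 to 0.20), and the fit with the replicate number as a block gave 19 falling and 2 rising genes in adult McSC, 20 and 2 in aged McSC against melanoblasts (Hist2h3c2 at an adjusted p of 0.0688), and 0 between aged and adult McSC; at 3 counts a gene is at 0.117 to 0.187 CPM, which limits the 36 untested genes.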
